A study of Homo sapiens with 6 samples.

Results

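The stretch of chromosome 6 between the 5′ end of PDE10A and the TBXT promoter held 211 of the 1201 distinct regions, or 17.6%, that were listed as contacting the TBXT promoter in any of 3 lung cancer cell lines. Regions were taken from this stretch when their midpoint lay at chr6:165988118-166169210 (hg38), an interval of 181 kb that ends at the viewpoint and includes the TBXT gene body. TBXT is read from the minus strand and its promoter lies at the high coordinate, so apart from the gene itself the interval is the sequence downstream of TBXT. A listed region is called a putative cis-regulatory element (pCRE) here. The methods of the study describe merging interacting fragments no more than 40 bp apart into a pCRE, whereas the deposited lists hold them unmerged, so a pCRE here is a smaller unit, and numbers of joined regions are given beside it.

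Interactions were measured by 4C-seq in untreated cultures of H460, a large cell lung cancer line that expresses TBXT, and of H358 and A549, lung carcinoma lines that do not. With 1 line that expresses TBXT, its expression cannot be told apart from other differences between the lines, and A549 was grown in DMEM whereas H460 and H358 were grown in RPMI. For each line 2 biological replicate libraries were made, 6 in all, and the authors pooled them into 1 list of positions per line. The lists give neither reads nor scores, so the depth is unknown, no spread between replicates can be given and no test was run. The study's text gives the totals of H358 and A549 the other way around from the deposited lists. The lists were assigned by their labels, and if the labels were exchanged, every H358 and A549 value in what follows would be exchanged with them, whereas the H460 values and the gained, lost and shared classes would stay.

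In 4C-seq, crosslinked chromatin is cut, ligated, cut with another enzyme and circularized, and the fragments joined to a chosen site, the viewpoint, are amplified by inverse PCR and sequenced. A fragment that is close to the viewpoint in the nucleus is recovered more often, and contacts fall with distance along the chromosome. TBXT encodes brachyury, a T-box transcription factor of the embryonic mesoderm and notochord that is silent in most adult tissues and is expressed in chordoma and in some carcinomas. Promoters can be contacted by distant enhancers and silencers, and transcripts of long non-coding RNA (lncRNA) genes often arise close to such elements.

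The viewpoint is set by the inverse primers, which are shown with the NlaIII site (CATG) in capitals. The forward primer matched the plus strand at chr6:166169196-166169213 and ends on the NlaIII site at 166169210, from which all distances were measured. The reverse primer matched the minus strand at chr6:166168612-166168632.
Forward inverse primer: ggctttcccgcggaCATG
Reverse inverse primer: ttatttccgtccatttccctc

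Every one of the 211 pCREs held a single NlaIII site together with the parts of the fragments on either side of it, and 192 of them began at most 3 bases after the end of another. The plus-strand reference sequence (hg38) of a pCRE is shown for 5 combinations of lines, with the NlaIII site in capitals, so that the unit being counted can be seen. Each is the longest one of at most 300 bp, taken from the stretch with the most pCREs of that combination. For H358 with A549, it is the longest such pCRE outside the TBXT gene. A longer one of that combination, of 264 bp in a TBXT coding exon, is not shown. The first was listed in all 3 lines at chr6:166144081-166144355, the next in H460 and H358 at chr6:166106892-166107185, and another in H358 and A549 at chr6:166121891-166122098. Those of a single line were at chr6:166050827-166051122 for H460 and chr6:166017835-166018092 for H358.
All 3 lines: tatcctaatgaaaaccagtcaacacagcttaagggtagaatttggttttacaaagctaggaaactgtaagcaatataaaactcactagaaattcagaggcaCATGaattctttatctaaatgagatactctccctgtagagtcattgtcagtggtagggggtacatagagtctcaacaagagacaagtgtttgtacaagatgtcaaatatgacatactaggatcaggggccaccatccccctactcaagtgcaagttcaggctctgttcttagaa
H460 and H358: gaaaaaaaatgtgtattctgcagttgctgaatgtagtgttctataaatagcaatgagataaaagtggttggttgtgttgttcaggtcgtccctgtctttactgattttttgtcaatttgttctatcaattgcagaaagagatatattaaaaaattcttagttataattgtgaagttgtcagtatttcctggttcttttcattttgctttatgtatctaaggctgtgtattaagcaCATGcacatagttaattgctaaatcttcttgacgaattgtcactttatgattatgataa
H358 and A549: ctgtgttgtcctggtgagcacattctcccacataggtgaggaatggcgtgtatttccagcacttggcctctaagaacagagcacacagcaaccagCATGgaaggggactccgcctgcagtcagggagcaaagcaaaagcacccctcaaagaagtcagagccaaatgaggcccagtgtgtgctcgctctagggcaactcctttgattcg
H460 alone: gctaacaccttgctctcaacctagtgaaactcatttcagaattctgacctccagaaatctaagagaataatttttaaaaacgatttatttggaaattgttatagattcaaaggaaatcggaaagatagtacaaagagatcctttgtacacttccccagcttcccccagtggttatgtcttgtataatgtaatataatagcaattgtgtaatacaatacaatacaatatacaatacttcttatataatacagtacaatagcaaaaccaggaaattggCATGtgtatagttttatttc
H358 alone: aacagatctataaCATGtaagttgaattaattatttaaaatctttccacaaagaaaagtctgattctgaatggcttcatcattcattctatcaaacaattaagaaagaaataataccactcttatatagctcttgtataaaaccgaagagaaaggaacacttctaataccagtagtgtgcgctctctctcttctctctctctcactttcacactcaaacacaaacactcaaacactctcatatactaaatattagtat

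The study selected a region of 1080 bp in this interval, at chr6:166029223-166030302, as a candidate regulatory element. The choice, made together with another region outside the interval, rested on gained contact and on the histone mark H3K27ac in H460. That mark was not analysed here. The region consists of 4 adjoining pCREs that were listed in H460 alone. The first 3 of them, at chr6:166029223-166029481, chr6:166029482-166029513 and chr6:166029514-166029740, are shown in the same way.
First pCRE: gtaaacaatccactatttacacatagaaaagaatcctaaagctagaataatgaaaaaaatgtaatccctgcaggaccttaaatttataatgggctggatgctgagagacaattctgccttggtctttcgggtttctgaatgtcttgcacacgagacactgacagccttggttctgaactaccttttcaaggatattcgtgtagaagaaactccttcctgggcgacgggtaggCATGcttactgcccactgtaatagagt
Next pCRE: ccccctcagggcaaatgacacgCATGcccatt
Following pCRE: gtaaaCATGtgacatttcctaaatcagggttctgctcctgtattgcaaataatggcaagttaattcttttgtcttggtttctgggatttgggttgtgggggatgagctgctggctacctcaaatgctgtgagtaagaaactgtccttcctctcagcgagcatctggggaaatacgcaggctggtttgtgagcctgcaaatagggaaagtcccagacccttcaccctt

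H460 had more pCREs in the interval than either line without TBXT expression. It listed 165 of its 760 pCREs here (21.7%, 95% Wilson interval 18.9 to 24.8), against 116 of 729 in H358 (15.9%, 13.4 to 18.7) and 114 of 759 in A549 (15.0%, 12.7 to 17.7). In base pairs, H460 pCREs covered 39069 (21.6% of the interval), those of H358 28485 (15.7%) and those of A549 26897 (14.9%). The intervals given here and in what follows cover counting error only and are lower limits of the error, since the authors smoothed the signal over 30 fragments and neighboring pCREs are not independent.

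The interval holds 846 NlaIII sites, of which 834 lie outside the 5 kb next to the viewpoint that the authors removed. Of all 846 sites, 19.5% were listed in H460, 13.7% in H358 and 13.5% in A549, and 24.9% in at least 1 line. Over the whole window, 1 Mb to each side, the share was 7.74% in H460, 7.43% in H358 and 7.75% in A549. The window reaches much farther from the viewpoint, so the interval of the same length on the other side of the viewpoint, which ends at 166350302, is the closer comparison. There, 38.9% of 887 sites were listed in H460, 38.3% in H358 and 32.8% in A549. Within the length of the interval, the side downstream of TBXT was thus the sparser side of the viewpoint in each list.

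The H460 pCREs also lay farther from the promoter. Their median distance was 60.0 kb, against 41.6 kb for the pCREs of H358 and 27.4 kb for those of A549. Beyond 100 kb lay 51 pCREs of H460, 25 of H358 and 2 of A549, whereas within 50 kb lay 74, 77 and 93. The order of the lines was therefore turned around between the far and the near part of the interval. In H460 the farthest pCRE was at chr6:166009190-166009378, 159.9 kb from the viewpoint, and the nearest at chr6:166156875-166157208, 12.2 kb from it. H358 reached from chr6:166017835-166018092, at 151 kb, to chr6:166158597-166158919, at 10.5 kb. A549 reached from chr6:166053890-166054071, at 115 kb, to chr6:166160939-166161012, at 8.23 kb.

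**Figure D1:**
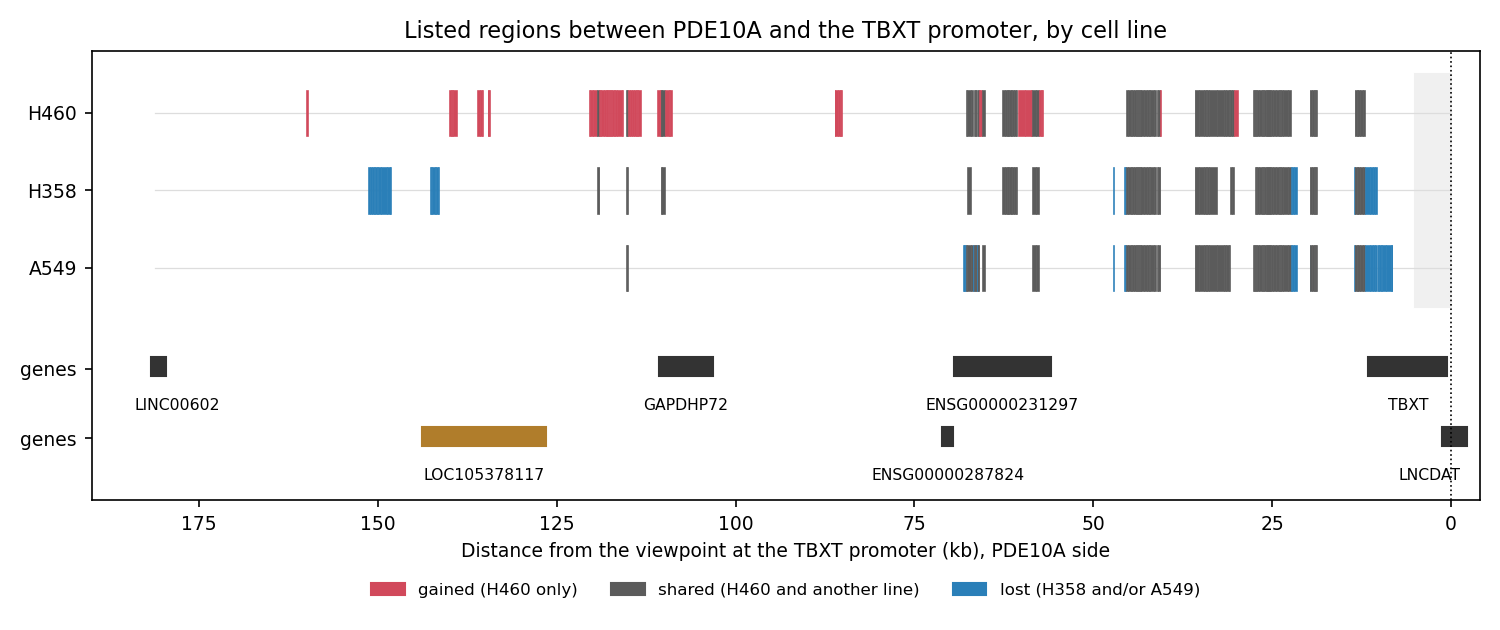
Listed pCREs along the interval, by line. The x axis gives the distance from the viewpoint in kb, each bar is a pCRE colored by its class, the gray box marks the 5 kb next to the viewpoint that the authors removed, and black and brown bars are GENCODE 44 genes and a RefSeq lncRNA gene. Beyond 100 kb H460 has 51 pCREs, H358 25 and A549 2, and nearest to the viewpoint only A549 and H358 reach into TBXT.

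Many pCREs of the interval were listed in H460 alone. Following the classes of the study, 61 of the 211 pCREs were gained, that is, listed only in H460 (28.9%, 95% Wilson interval 23.2 to 35.4), where the share over all pCREs of the window was 14.0%. Outside the interval 10.8% (9.02 to 12.9) were gained, and in the interval of equal length on the other side 5.34% (3.55 to 7.95). Of all 168 gained pCREs of the window, 36.3% lay here. Lost pCREs, listed in H358 or A549 or both but not in H460, numbered 46 (21.8%, 16.8 to 27.8), against 36.7% in the window, 39.9% outside the interval and 16.7% (13.5 to 20.7) in the interval on the other side. Shared pCREs, listed in H460 and at least 1 other line, numbered 104 or 49.3%, which is the share of 49.3% found in the window, and 77.9% were shared on the other side. All these classes rest on the presence or absence of identical positions in 1 list per line.

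Among the 7 combinations of lines, the one with all 3 lines was the most frequent, with 69 pCREs (32.7%, 26.7 to 39.3), followed by H460 alone with 61. H460 and H358 without A549 listed 19, H460 and A549 without H358 listed 16, and H358 and A549 without H460 listed 11. H358 alone had 17 and A549 alone 18, or 8.06% and 8.53%, where the shares outside the interval were 15.7% and 19.8% and those in the interval on the other side 5.10% and 9.47%. The combinations lay at different distances. The median was 27.0 kb for pCREs of all 3 lines, 116 kb for H460 alone, 149 kb for H358 alone and 10.1 kb for A549 alone.

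**Figure D2:**
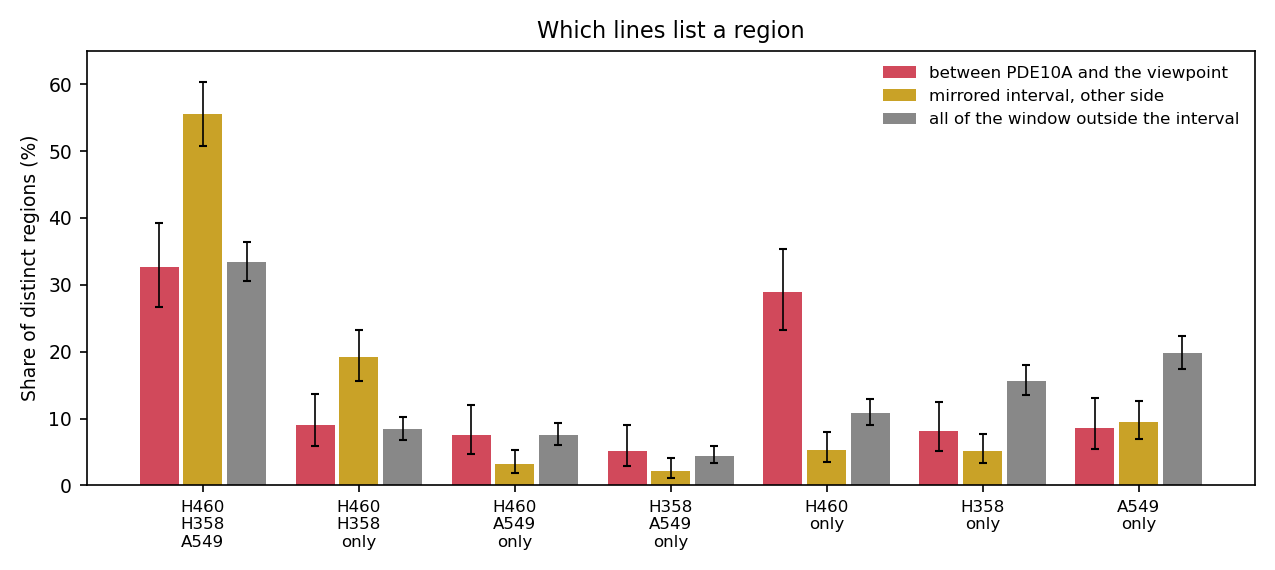
Share of distinct pCREs, in percent on the y axis, listed in each of the 7 combinations of lines, in the interval between PDE10A and the viewpoint, in the interval of equal length on the other side and in all of the window outside the interval. Error bars are 95% Wilson intervals, which cover counting error only. H460 alone made up 28.9% in the interval, 5.34% on the other side and 10.8% outside it.

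By pairs of lines, H358 and A549 had 80 of 150 pCREs in common (53.3%, 45.4 to 61.1), H460 and H358 had 88 of 193 (45.6%, 38.7 to 52.6), and H460 and A549 had 85 of 194 (43.8%, 37.0 to 50.8). The intervals of the 3 pairs overlapped, but the pairs draw on many of the same pCREs, so this does not measure whether they differ. Outside the interval, the order was another one, with 42.5% for H358 and A549, 52.1% for H460 and H358 and 48.5% for H460 and A549. On the other side of the viewpoint all pairs had more in common, at 61.0%, 82.6% and 61.9%.

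**Figure D3:**
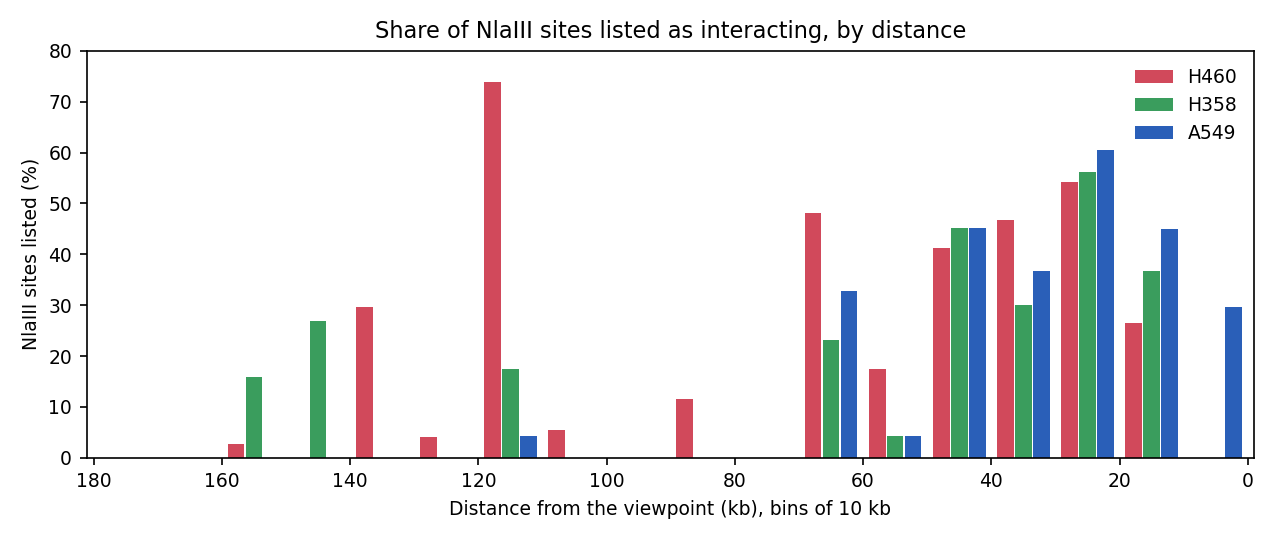
Share of NlaIII sites listed per line, in percent on the y axis, in bins of 10 kb by distance from the viewpoint in kb on the x axis, with 1 bar per line and no bar where no site was listed. Between 110 and 120 kb 73.9% of the sites were listed in H460, 17.4% in H358 and 4.35% in A549, whereas between 20 and 30 kb the lines stood at 54.2%, 56.3% and 60.4%.

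In bins of 10 kb, the lines were close to each other between 20 and 30 kb from the viewpoint, where 26 of 48 NlaIII sites were listed in H460, 27 in H358 and 29 in A549. The lists were far apart between 110 and 120 kb, where 34 of 46 sites were listed in H460, 8 in H358 and 2 in A549. H460 alone had pCREs between 80 and 90 kb, with 7 of 61 sites, and between 130 and 140 kb, with 11 of 37. H358 alone had 11 of 41 sites between 140 and 150 kb. No line listed a site between 70 and 80 kb or between 90 and 100 kb. Within 10 kb, where the authors removed the nearest 5 kb, 8 of 27 sites were listed in A549 and none in H460 or H358.

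Joined when no more than 40 bp apart in any line, the 211 pCREs formed 19 stretches. Of these, 8 stretches with 133 pCREs held pCREs of all 3 lines, 3 stretches with 41 pCREs held H460 and H358, and 1 held a single pCRE of H358 and A549. H460 had 5 stretches to itself, with 19 pCREs, and H358 had 2, with 17 pCREs. A549 had none. Thus 17 of 17 pCREs of H358 alone, 19 of 61 of H460 alone and 0 of 18 of A549 alone lay in stretches that no other line touched. The remaining 42 of H460 and 18 of A549 lay in stretches that other lines also listed. No such share is given for the rest of the window, so these are not shown to be particular to the interval.

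**Figure D4:**
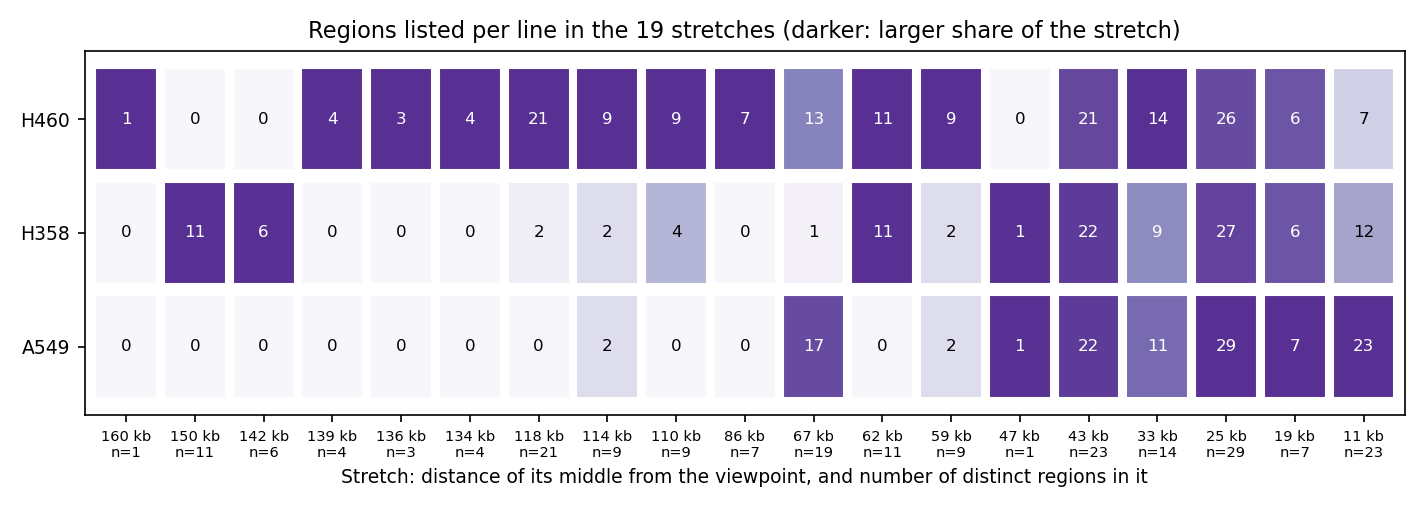
The 19 stretches of joined pCREs, ordered from PDE10A on the left to the viewpoint on the right, labelled on the x axis by the distance of their middle in kb and their number of pCREs. Each cell gives the number of pCREs listed in a line, and darker cells mark a larger share of the stretch. The stretches at 150 and 142 kb hold pCREs of H358 alone, those at 160, 139, 136, 134 and 86 kb hold H460 alone, and those from 43 to 11 kb hold all 3 lines.

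Joined within a line, there were 17 stretches in H460, 15 in H358 and 10 in A549. The one with the most pCREs was the same place in each line. For H460 it held 26 pCREs at chr6:166141560-166146826, in H358 27 at chr6:166141811-166147646, and in A549 29 at chr6:166141560-166147646, all between 21.6 and 27.7 kb from the viewpoint and in no annotated gene. A run of 24 of these pCREs, at chr6:166141811-166146826, was listed in all 3 lines, and the sequence shown for all 3 lines comes from it.

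The annotated genes divide the interval into 4 zones. The farthest zone runs from PDE10A, which encodes a cyclic nucleotide phosphodiesterase, to the lncRNA gene ENSG00000287824, at chr6:165988118-166098110. It is 110.0 kb long and held 75 pCREs, of which H460 listed 58, H358 25 and A549 2. Of its 536 NlaIII sites, 10.8% (8.46 to 13.7) were listed in H460, 4.66% (3.18 to 6.79) in H358 and 0.373% (0.102 to 1.35) in A549. The listed sites are mostly runs of neighbors in 1 list per line, so these intervals do not measure a difference between lines. The lines had little in common in this zone, where 50 pCREs were of H460 alone and 17 of H358 alone. Only 8 of 75 pCREs (10.7%) were common to H460 and H358, and the 2 pCREs of A549 were listed in all 3 lines.

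Next to PDE10A no line listed a pCRE over 21.1 kb with 105 NlaIII sites, at chr6:165988118-166009189. The lncRNA gene LINC00602, at chr6:165987551-165989615 on the plus strand, lies at the edge of this gap, 19.6 kb from the nearest pCRE. The first pCREs were a lone one of H460 and a stretch of 11 of H358 alone at chr6:166017835-166021090, the stretch with the most pCREs of that line alone. In this stretch H358 listed all 11 NlaIII sites while H460 and A549 listed none.

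Stretches of H358 alone and of H460 alone then stood side by side inside LOC105378117, a lncRNA gene that RefSeq places at chr6:166025363-166042646 and GENCODE 44 does not contain. Of the 17 pCREs in this gene, 11 were of H460 alone, 6 of H358 alone and 0 of A549. The 6 of H358 lay at chr6:166026461-166027808. The region selected by the study began 1.41 kb and 5 unlisted NlaIII sites farther on, at 139 to 140 kb from the viewpoint, and held 4 of the H460 pCREs. The other 7 followed at chr6:166033122-166033883 and chr6:166034540-166034881. The G and C content was 55.3% in this H358 stretch, 40.1% in the other stretch of H358 alone and 38.6% in the selected region.

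The largest block of gained pCREs began 120.5 kb from the viewpoint. At chr6:166048752-166053514 H460 listed all 21 NlaIII sites, H358 listed 2 and A549 listed 0. A run of 16 pCREs in it, at chr6:166050145-166053514, was the longest run of H460 alone in the interval. It is 3370 bp long, has a G and C content of 34.1% and lies in no GENCODE 44 gene. The stretch that follows, at chr6:166053890-166055984, held 9 pCREs of H460, of which 2 were also listed in H358 and A549. These were the only pCREs of A549 farther than 70 kb from the viewpoint. H460 then listed 9 pCREs at chr6:166058160-166060346, 4 of them also in H358, which extend into the GENCODE 44 model of the pseudogene GAPDHP72. In that model, with 48 NlaIII sites, lay 8 pCREs of H460, 4 of H358 and 0 of A549. The shorter RefSeq model of the pseudogene, with 14 sites, held 0. Over the whole interval, 19.5% of the sites were listed in H460, 13.7% in H358 and 13.5% in A549.

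The longest gap without a pCRE of any line, 22.7 kb with 135 NlaIII sites, followed at chr6:166060347-166083061. It ended at a stretch of 7 pCREs of H460 alone, at chr6:166083062-166084068. The longest gap of a single list was this one of 22.7 kb for H460, but 42.2 kb for H358 and 65.8 kb for A549.

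The next zone, at chr6:166098111-166113273, spans the lncRNA genes ENSG00000287824 and ENSG00000231297, both on the plus strand. H460 listed 33 of its 71 NlaIII sites (46.5%, 35.4 to 58.0), A549 19 (26.8%, 17.9 to 38.1) and H358 14 (19.7%, 12.1 to 30.4). All 39 pCREs of the zone lay inside ENSG00000231297, at chr6:166099665-166113273, and all were in its introns. None touched an exon, and none touched the promoter of a GENCODE 44 lncRNA gene of the interval, taken as 1000 bp before to 100 bp after an annotated start. For LINC00602 and LNCDAT this was fixed in advance. The promoter of LINC00602 lies outside the interval, and those of LNCDAT lie in the 5 kb that the authors removed. Those of ENSG00000287824 and ENSG00000231297 both lie in the same gap without a pCRE of any line. This gap, at chr6:166084069-166100927, is 16.9 kb long with 92 NlaIII sites. No share of NlaIII sites is given for these exons and promoters, so their lack of pCREs is a description. ENSG00000287824 held 0 pCREs, and its nearest was 1.34 kb away.

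Inside ENSG00000231297 the partner line of H460 changed from stretch to stretch. In the first, A549 listed 17 of 19 pCREs, H460 13 and H358 1, and 10 were common to H460 and A549 without H358. The second lay 2.44 kb farther on, at chr6:166106491-166108495, where H460 and H358 listed the same 11 pCREs and A549 listed none. Another 216 bp farther, at chr6:166108712-166112148, H460 listed 9 pCREs, H358 2 and A549 2, the same ones in both, so that 7 were of H460 alone. The pair of H358 and A549 accordingly had 3 of 30 pCREs in common in this zone (10.0%, 3.46 to 25.6), against 14 of 33 for H460 and H358 (42.4%, 27.2 to 59.2) and 13 of 39 for H460 and A549 (33.3%, 20.6 to 49.0).

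From the end of ENSG00000231297 to the 3′ end of TBXT, at chr6:166113274-166157655, the lines were much alike in what they listed. This zone of 206 NlaIII sites held 74 pCREs of H460 (35.9%), 74 of H358 (35.9%) and 79 of A549 (38.3%), and 64 of its 83 pCREs were listed in all 3 lines. The pairs had 80.5% (H460 and H358), 84.3% (H460 and A549) and 88.9% (H358 and A549) of their pCREs in common. H460 alone listed 2, A549 alone 1 and H358 alone 0. No gene is annotated in this zone in GENCODE 44 or RefSeq.

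Within its stretches, the 21 pCREs of H460, 22 of H358 and 22 of A549 at chr6:166123449-166128672 had 20 in common. At chr6:166133372-166139385 H460 listed all 14 pCREs, A549 11 and H358 9, and 7 were listed in all 3 lines. The single pCRE at chr6:166121891-166122098 was listed in H358 and A549 and stood apart from the others.

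The zone from the 3′ end of TBXT to the viewpoint, at chr6:166157656-166169210, held pCREs of the lines without TBXT expression only. The list labelled A549 held 14 of 33 NlaIII sites, that labelled H358 held 3 and that of H460 held 0. These 33 include the sites within 5 kb of the viewpoint, which the authors removed and no line could list. All 14 pCREs lay in the TBXT gene, and 11 of them were of A549 alone. They belong to the stretch at chr6:166155605-166161012. By midpoint, this stretch starts outside the gene with 7 pCREs of all 3 lines and 2 of H358 and A549. Of these, the pCRE at chr6:166157209-166157871, listed in H358 and A549, runs into exon 8 of TBXT. The H460 part ended at 166157208, the H358 part at 166158919 and the A549 part at 166161012, so that the lists ended one after the other along the same stretch. The run of H358 and A549 without H460 held 4 pCREs at chr6:166157209-166158919, and the run of A549 alone held 11 at chr6:166158920-166161012.

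By their midpoints, 10 of the 14 pCREs were in TBXT introns, 1 in the non-coding part of exon 8, and 3 in coding sequence. The pCRE at chr6:166158333-166158596, in exon 8, was listed in H358 and A549, and those at chr6:166160901-166160927 and chr6:166160928-166160938, in exon 7, were listed in A549 alone. The latter are 27 and 11 bp long. Neither of them adjoins an NlaIII fragment with a site of the other enzyme, DpnII, which a fragment needs for its end to be sequenced. The pCRE in exon 8 adjoins 1 such fragment. Whether the calls in exon 7 come from the smoothing over neighboring fragments was not tested. The authors removed fragments within 5 kb of the viewpoint, so that exons 1 to 5 of the canonical transcript could not be listed in any line. LNCDAT, a lncRNA gene at chr6:166167920-166171376 that crosses the viewpoint, lies wholly inside the removed part.

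**Figure D5:**
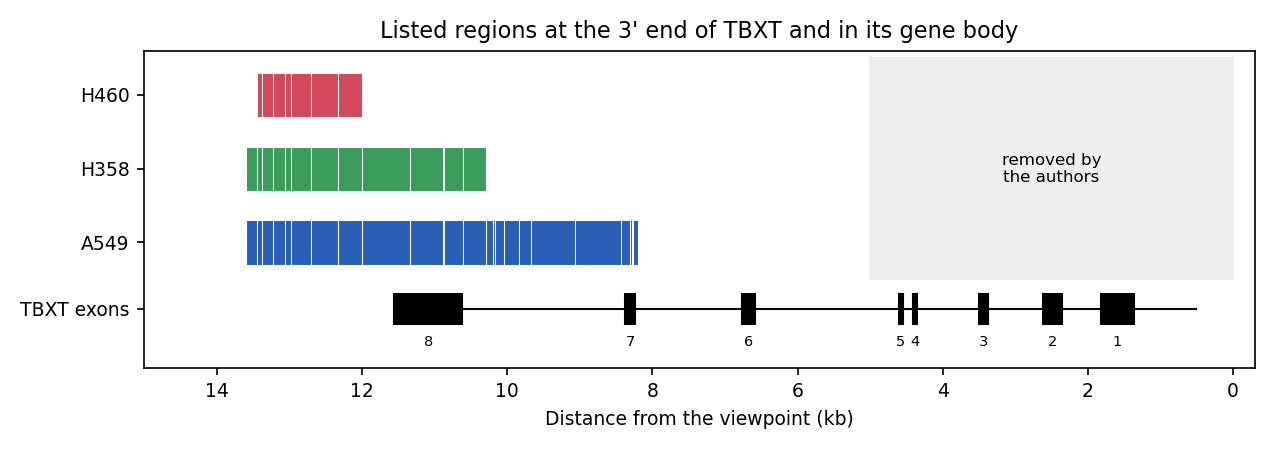
The stretch at the 3′ end of TBXT, by line. The x axis gives the distance from the viewpoint in kb, colored bars are pCREs separated by white lines, black boxes are the numbered exons of the canonical transcript, the thin line is the gene, and the gray box is the part removed by the authors. The H460 bars end before the gene, the H358 bars end in the intron between exons 8 and 7, and the A549 bars end in the intron between exons 7 and 6.

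Of all 211 pCREs, 150 lay in no GENCODE 44 gene and 39, or 18.5%, in a lncRNA gene, all in ENSG00000231297. That gene holds 62 of the 846 NlaIII sites of the interval. GENCODE 44 and RefSeq each place 4 lncRNA genes in the interval. LINC00602 and LNCDAT are in both, and the others are ENSG00000287824 and ENSG00000231297 in GENCODE 44 and LOC105378117 and LOC729681 in RefSeq. By RefSeq, 17 pCREs lay in a lncRNA gene, all in LOC105378117. This gene holds 68 of the 846 sites, so its listed share was close to the 24.9% of all sites of the interval.

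In base composition, the listed and unlisted parts of the interval differed little. The G and C content was 40.7% over the listed pCREs, 41.5% over the NlaIII site regions that no line listed, and 43.1% over the whole window. The classes were farther apart, with 36.5% in gained, 41.4% in shared and 44.9% in lost pCREs. The lists of H358 and A549 had 42.6% and 42.7%, and that of H460 had 39.5%. The pCREs of a stretch share their surroundings, so these values are a description.

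A fragment end is sequenced in 4C-seq when the NlaIII fragment also holds a DpnII site. Of the 211 pCREs, 87 (41.2%, 34.8 to 48.0) had no DpnII site in either adjoining NlaIII fragment, against 44.8% of the unlisted sites and 47.0% in the window. They were 32.8% of the gained (22.3 to 45.3), 41.3% of the shared and 52.2% of the lost pCREs (38.1 to 65.9). The share of sites listed in any line was 23.8% with no such fragment, 25.7% with 1 and 29.4% with 2. The part of the smoothing over fragments in these shares was not tested.

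Exact matches to 4 short motifs were counted on both strands. The motifs were ATACACA and TCATCA, which the study derived from its selected regions, AGGTGTGA, the core of the site bound by T-box factors, and AGGNGGCG, taken from the core of the motif of CTCF, a factor that binds at the anchors of chromatin loops. ATACACA was in 5.21% of the listed pCREs, 6.26% of the unlisted and 5.19% of all NlaIII site regions of the window. TCATCA was in 13.3%, 13.6% and 12.1%. Each of the 4 pCREs of the selected region in this interval held 0 exact matches to ATACACA and to TCATCA. AGGTGTGA was in 6 listed pCREs (2.84%), against 2.09% and 1.45%, and AGGNGGCG in 3 (1.42%), against 0.963% and 1.38%. Of the 6 with AGGTGTGA, 2 were gained, 3 shared and 1 lost, and the 3 with AGGNGGCG were 1 of each class. A match is a description of the letters and not a bound site.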

How the data were processed

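The values deposited by the authors are neither counts nor scores but other values, namely the first and last position (bp, hg38, chromosome 6) of each region, in 1 list for each of H460, H358 and A549. Per the submitters' processing notes reads were aligned with Bowtie 1.2.2, and per the methods they had been trimmed to 30 bp and mapped to NlaIII and DpnII fragments. Fragments under 40 bp or within 5 kb of the viewpoint were removed, a running mean over 30 fragments was taken, and fragments within 1 Mb were called with peakC and a local coverage score where present in both replicates. A merging of fragments no more than 40 bp apart is described too, but the lists are unmerged. The running mean ties neighboring calls together, and a score cut at a quartile limits how many can pass per line. The methods and the sample records differ in the paraformaldehyde concentration.

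Header lines (1 in the A549 and 1 in the H358 list) were dropped, starts were counted from 1, and a pCRE counted as common to lines only where both its ends were identical. Boundaries of all 211 pCREs matched midpoints of NlaIII fragments of hg38 within 2 bp, and 67 of 67 RefSeq promoters were identical to the sequence used. Shares carry 95% Wilson intervals. No test was run. Genes were taken from GENCODE 44 and RefSeq, and a pCRE was placed by its midpoint. The counting was tested on simulated data and recovered 200 of 200 simulated lists. Python 3.11.15, numpy 2.4.6, scipy 1.17.1 and matplotlib 3.10.9 were used.

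The genes named are PDE10A, TBXT, LINC00602 and those that overlap the interval. The regions named by rule are the one the study selected, the stretch with the most pCREs for each combination, the nearest and farthest pCRE and the longest joined stretch of each line, pCREs in TBXT coding exons and the longest gap. The other stretches and gaps were picked for naming with their values known. The members and lists were chosen with earlier results of these data known. Alternatives were other rules for membership and matching, joined regions or base pairs, filters on short pCREs and on the TBXT gene body, leaving out a line, and other rules for annotation and base composition. The RefSeq annotation and a DpnII site at least 40 bp from the NlaIII site were added after seeing the data. Histone marks and expression were not analysed here, and sequences for the other combinations of lines are not reported here.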

Additional observations from a re-analysis of the deposited data

How the results depend on the processing

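No paired analysis was possible because each list pools both replicates of a line, and for the same reason no replicate could be left out. The depth is unknown, and how close an unlisted site came to being listed cannot be seen. Of the values recomputed under alternatives, 108 stayed within the 95% Wilson interval of the reported value or, for counts, within 1.5 times it, and 22 did not. Joined regions in place of single pCREs gave 17 for H460, 15 for H358 and 10 for A549, so that the order of the lines was kept, with 60.0% shared and 15.0% lost, and 55.0% in common to H460 and H358. Without the TBXT gene body 16.2% were lost and 3.55% were of A549 alone. Without the H358 list 41.2% were gained and 14.9% lost, and without the A549 list 39.9% and 14.5%. By construction, fewer lists to match leave more pCREs in H460 alone. Without H460 the classes are not defined. At the promoters of lncRNA genes, in place of gene bodies, H460, H358 and A549 had 0, 0 and 0. For the promoters of LINC00602 and LNCDAT this was fixed in advance by their position, and those of ENSG00000287824 and ENSG00000231297 lie in the same gap. RefSeq lncRNA gene bodies held 11, 6 and 0, in place of 33, 14 and 19, an alternative added after seeing the data. The mean G and C content per region was 42.0% for listed and 42.5% for unlisted sites. With a DpnII site required at least 40 bp from the NlaIII site, also added after seeing the data, 50.7% of the listed and 57.3% of the unlisted sites had none.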
